A study of Rattus norvegicus with 110 samples.

Results

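Hells, Dnmt3b, Tet2 and Tet3 were followed across CCl4 dose, ancestry and organ in F2 male rats. They are 4 of the 31998 genes in the count tables and were selected here by name and Ensembl identifier (Hells ENSRNOG00000047692.2, Dnmt3b ENSRNOG00000010625.7, Tet2 ENSRNOG00000023579.7, Tet3 ENSRNOG00000011387.8). All 4 passed the filter on low counts in liver, where 19004 genes were tested, and in kidney, where 18374 were tested. The study's authors had themselves named Hells, Dnmt3b and Tet family genes from the ancestry comparison in these livers. The ancestry values, calls and shares given here are therefore not independent evidence of a direction or of an effect.

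All animals were F2 males of the Sprague Dawley strain with untreated mothers and grandmothers. Carbon tetrachloride (CCl4), a hepatotoxin used to produce liver fibrosis, was given by oral gavage at 0.5 mL/kg in olive oil, 3 times per week, and tissue was sampled after 39 days. F2 males received olive oil alone (vehicle), 8% CCl4 (low dose) or 50% CCl4 (high dose). Males of cohort A had no treated ancestor, those of cohort B had a CCl4-treated F1 sire, those of cohort C a CCl4-treated F0 grandsire, and those of cohort D both, all ancestors having been given 50% CCl4 or olive oil. Liver RNA came from 83 males in 12 groups of 7, except that cohort C vehicle held 6, and kidney RNA from the 27 vehicle males. The males descended from 17 F0 sires (8 control, 9 treated) through 34 litters and were necropsied on 4 dates. Males that share a grandsire are not independent units of the F0 treatment.

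DNA methylation is the addition of a methyl group to cytosine, in mammals mostly at CpG dinucleotides, and at promoters it is associated with silencing. Dnmt3b is a de novo methyltransferase that writes the mark, and Hells is a SNF2-family chromatin remodeler that gives methyltransferases access to nucleosomal DNA. Tet2 and Tet3 are dioxygenases that oxidize 5-methylcytosine, the first step of its removal. Hells is best known from dividing cells, and Dnmt3b from embryonic cells. Dnmt1, Dnmt3a, Tet1 and Uhrf1, the closest relatives and partners of these genes, could not be paired with an identifier and were not analysed here. The symbol table pairs the Hells identifier with a second name, LOC100911660, so reads of a near-identical copy could be included in its count.

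The start-site regions of Hells, Tet2 and Tet3 are shown because the mark these enzymes handle is placed on CpGs. The sequences are RefSeq windows of 300 bases of the rat build GRCr8, from 250 bases before to 50 bases after a transcript start, written 5′ to 3′ on the gene's strand with each CpG in capitals. The Hells window is chr1:246113879-246114178 (plus strand), the Tet2 window chr2:224746137-224746436 (minus strand), and the Tet3 window chr4:117520996-117521295 (minus strand), 1 of several annotated Tet3 starts. A window for Dnmt3b is missing.
Hells: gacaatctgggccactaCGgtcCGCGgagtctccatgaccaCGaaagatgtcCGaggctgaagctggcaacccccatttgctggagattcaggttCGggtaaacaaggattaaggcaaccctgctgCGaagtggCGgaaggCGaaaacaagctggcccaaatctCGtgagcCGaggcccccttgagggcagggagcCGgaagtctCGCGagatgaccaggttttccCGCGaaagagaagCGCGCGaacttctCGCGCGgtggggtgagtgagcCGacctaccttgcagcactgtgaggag
Tet2: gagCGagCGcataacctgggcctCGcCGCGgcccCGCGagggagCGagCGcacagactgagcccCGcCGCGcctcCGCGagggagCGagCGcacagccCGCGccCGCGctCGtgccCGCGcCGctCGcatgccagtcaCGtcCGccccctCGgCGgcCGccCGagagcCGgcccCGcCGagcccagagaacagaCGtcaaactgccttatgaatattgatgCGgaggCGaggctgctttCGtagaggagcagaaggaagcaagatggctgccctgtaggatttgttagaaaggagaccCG
Tet3: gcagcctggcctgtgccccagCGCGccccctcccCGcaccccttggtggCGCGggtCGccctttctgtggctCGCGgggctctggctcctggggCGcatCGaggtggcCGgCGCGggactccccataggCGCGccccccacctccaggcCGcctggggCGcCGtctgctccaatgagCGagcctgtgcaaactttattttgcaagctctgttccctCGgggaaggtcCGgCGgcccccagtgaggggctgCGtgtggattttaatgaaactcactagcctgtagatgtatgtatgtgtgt

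The Tet2 window held 39 CpGs, a number reached by 3.76% of the 33469 RefSeq windows of this length, whose median was 7. The Hells and Tet3 windows each held 23, a number reached by 19.5% of the windows. Another annotated Tet3 start, at chr4:117525446-117525745, held 3 CpGs. TTTCCCGC, an E2F-type motif, begins 29 bases before the Hells start on the gene's strand. It was found on either strand in 0.974% of all windows. The related letters TTTGGCGC (0.493% of windows), TTTGCCGC (0.415%) and TTTCGCGC (0.326%) were in none of the 3 windows printed, nor was TTTCCCGC in those of Tet2 and Tet3. These matches describe letters and not binding.

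Library totals lay between 31638559 and 51343589 counts in liver and between 21961746 and 35055218 in kidney. On the first principal component of the vehicle livers, C vehicle replicate 2 (score 66.1), D vehicle replicate 1 (51.7) and D vehicle replicate 2 (25.1) stood apart from the other libraries, which reached at most 6.74, so the main terms for ancestry and dose are also given without them. The comparison of F0 sires was repeated without C vehicle replicate 2 only, and the differences within dates were not repeated. Identity of the organs was checked with kidney epithelium markers, of which 2 of 8 had an identifier. Lrp2, a proximal tubule endocytic receptor, had a median of 1.03 TPM in vehicle livers and 302 TPM in kidneys, and Nphs1, a podocyte gene, had 0.268 and 16.3 TPM. None of the 6 hepatocyte markers had an identifier.

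Level was first compared between genes and organs in vehicle males as TPM, a transcript abundance scaled by length and library. In liver, Hells was the most abundant of the 4, with a lowest, median and highest value of 3.495, 8.77 and 12.1 TPM over 27 males. Dnmt3b had 1.05, 2.61 and 3.997 TPM, Tet3 0.547, 2.32 and 3.98 TPM, and Tet2 0.414, 2.14 and 3.33 TPM. These last 3 ranges overlapped over most of their extent. The Hells range reached those of Dnmt3b and Tet3 only at its lower end and lay above that of Tet2. The lowest values of Dnmt3b, Tet3 and Tet2 all came from C vehicle replicate 4. Its 10 most abundant genes took 17.1% of its counts, the lowest share among the vehicle livers.

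In kidney the Tet genes were the more abundant ones. Tet2 led with 2.01, 5.25 and 8.21 TPM over the same 27 males, followed by Tet3 with 1.69, 3.65 and 6.46 TPM. Hells had 0.526, 1.23 and 1.62 TPM, and Dnmt3b 0.231, 0.517 and 0.770 TPM. Every kidney lay below every liver for Hells and for Dnmt3b, a separation in TPM that 5.11% of 19292 genes showed, whereas the 2 organs overlapped for both Tet genes.

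Counts of both organs were then normalized together by TMM, a scaling that takes most genes as unchanged, and tested by the quasi-likelihood method of edgeR. Hells was lower in kidney than in liver by 3.53 on the log2 scale (log2 fold change -3.53 ± 0.104 SE, edgeR adjusted p = 3.07e-35), and Dnmt3b was likewise lower (log2 fold change -3.27 ± 0.0944, edgeR adjusted p = 1.34e-35). Tet2 was higher in kidney (log2 fold change 0.48 ± 0.107, edgeR adjusted p = 6.82e-05), while Tet3 gave 0.03 ± 0.125 and an edgeR adjusted p of 0.846. Passing an adjusted p of 0.1 is a weak criterion here, since 85.3% of 19292 genes did so between the organs, whereas a fall of over 1 on the log2 scale was seen in 18.7%. Scaling to library totals alone moved the median gene by 0.96 toward kidney. On that scale Tet3 was higher in kidney (log2 fold change 0.98, edgeR adjusted p = 6.34e-10), Tet2 reached 1.44, and Hells and Dnmt3b remained lower at -2.57 and -2.31. With the animal as a replicate block the sign for Tet3 turned to -0.01, and the other 3 kept their direction and call.

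**Figure D1:**
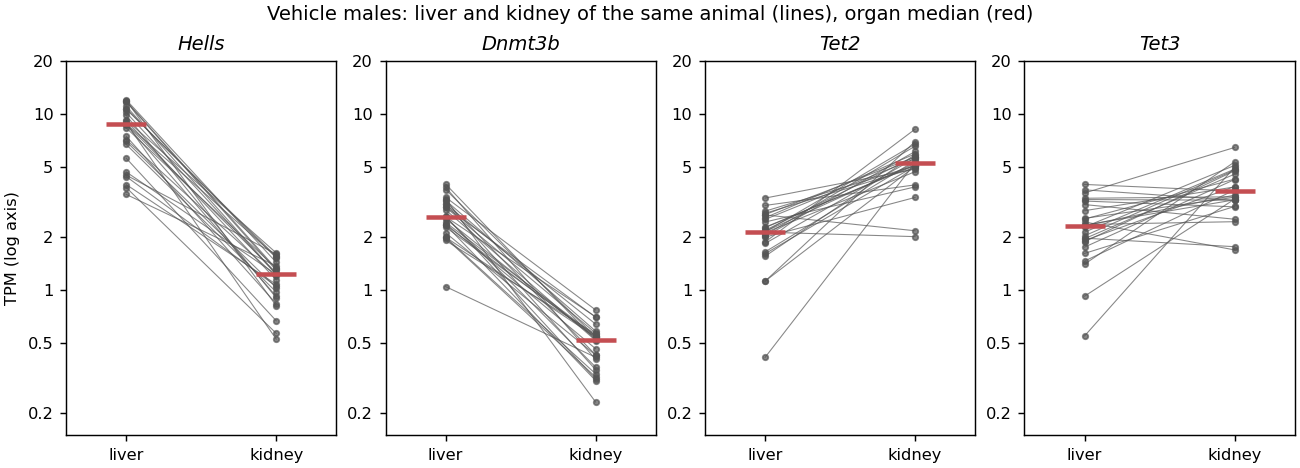
TPM (log axis) of each gene in liver and kidney of the 27 vehicle males, with a line for each animal and a red bar at the organ median. The lines for Hells and Dnmt3b go down from liver to kidney in all 27 animals, and those for Tet2 and Tet3 mostly go up, from medians of 2.14 to 5.25 and of 2.32 to 3.65 TPM.

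CCl4 dose was examined next in liver, on TMM-normalized counts. Dnmt3b fell with both doses, and Hells fell at the high dose only. Tet2 and Tet3 were lower at the high dose by smaller amounts, and that direction depended on how the libraries were scaled. In bulk tissue, fewer cells of a type and less RNA per cell cannot be told apart.

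For Dnmt3b, the lowest, median and highest normalized counts were 179, 258.62 and 388 in 27 vehicle males, 122, 204 and 330 in 28 low-dose males and 78.3, 112 and 217 in 28 high-dose males. The low-dose range covered much of the vehicle range, while the high-dose range overlapped it only at its upper end. Over cohorts the difference from vehicle was, for low-dose males, -0.30 ± 0.0842 SE (log2 fold change, edgeR adjusted p = 0.00466) and, for high-dose males, -1.16 ± 0.0853 (edgeR adjusted p = 2.16e-21), and the high dose lay below the low dose by -0.86 ± 0.0844 (edgeR adjusted p = 9.91e-15), a comparison that 65.3% of all genes passed and 31.4% passed as lower. On library totals alone the high-dose value was -0.57 and still passed, and the low-dose value was -0.14 and did not (edgeR adjusted p = 0.196).

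The Dnmt3b decrease at the high dose was seen in each cohort, at -1.20 ± 0.170 in A, -1.09 ± 0.168 in B, -1.29 ± 0.175 in C and -1.08 ± 0.169 in D (log2 fold change ± SE, all with edgeR adjusted p at or under 1.85e-07), where 49.2%, 55%, 47.9% and 51.1% of all genes passed. On library totals alone the 4 values were smaller, at -0.52, -0.46, -0.78 and -0.55, and each still passed. In cohorts A, B and C each of the 7 high-dose males lay below every vehicle male, a separation that 7.69%, 8.49% and 5.15% of genes showed in these cohorts. In cohort D 6 of 7 did. No cohort passed on its own for the low dose, with Dnmt3b values from -0.37 to -0.24 and with 6.28%, 6.44%, 10.3% and 7.4% of all genes passing in A to D.

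For Hells, the lowest, median and highest normalized counts were 388, 860 and 1144 in vehicle males, 475.4, 797 and 1902 in low-dose males and 129, 406 and 885 in high-dose males. Vehicle and low-dose males overlapped broadly, 1 low-dose male lay far above the others, and high-dose males reached up into the vehicle range. The low-dose difference was -0.01 ± 0.116 (log2 fold change ± SE, edgeR adjusted p = 0.965). The high-dose difference was -0.88 ± 0.117 (edgeR adjusted p = 2.59e-10), or -0.30 on library totals alone, where it still passed (edgeR adjusted p = 0.013).

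By cohort, the Hells difference at the high dose was -0.92 ± 0.237 in A, -1.05 ± 0.236 in B, -1.005 ± 0.244 in C and -0.56 ± 0.235 in D (log2 fold change ± SE). Each passed the test, the weakest being cohort D with an edgeR adjusted p of 0.0473. Of all genes, 49.2%, 55%, 47.9% and 51.1% passed in A to D. On library totals alone the values were -0.23 in A, -0.41 in B and -0.04 in D, and none of these 3 passed, while that in C was -0.50 and passed. Without the 3 libraries that stood apart the value in D was -0.49 and missed the threshold (edgeR adjusted p = 0.12), while that in C was -0.95 and passed. In cohort D the high-dose males ranged from 306 to 885 counts with a median of 768, against 683 to 1067 in vehicle males, and 3 of 7 lay below every vehicle male. The test of the difference between cohort D and cohort A in this response gave 0.37 ± 0.332 (edgeR adjusted p = 0.794).

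Tet2 counts were 209, 643 and 904 (lowest, median and highest) in vehicle males, 322, 656 and 844 in low-dose males and 336, 548 and 738 in high-dose males. Tet3 counts were 226, 510 and 836, then 210, 512.5 and 809, then 294, 383 and 577. The 3 ranges overlapped broadly for each gene. The high-dose difference was -0.25 ± 0.0844 for Tet2 (log2 fold change ± SE, edgeR adjusted p = 0.0064) and -0.35 ± 0.0942 for Tet3 (edgeR adjusted p = 0.000849) under TMM, but 0.37 and 0.27 on library totals alone, where both passed in the opposite direction (edgeR adjusted p = 0.000246 and 0.0148). The Tet2 value was lost as a call without necropsy date 1 (-0.13, edgeR adjusted p = 0.288) and without date 4 (-0.16, edgeR adjusted p = 0.194). Under TMM the single cohorts passed for Tet2 in B alone (-0.36 ± 0.173) and for Tet3 in B (-0.50 ± 0.186) and D (-0.59 ± 0.186), and on library totals these 3 values were positive (0.28, 0.13 and 0.05). Of all genes, 55% passed in B, 47.9% in C and 51.1% in D. The Tet2 value in B missed the threshold with DESeq2 (-0.32, adjusted p = 0.117) and with litter as a replicate block (-0.35, edgeR adjusted p = 0.112). Leaving out C vehicle replicate 4 moved the Tet2 value in C from -0.16 to -0.34, where it passed. Without the 3 libraries that stood apart, the high-dose values under TMM were -0.85 for Hells, -1.11 for Dnmt3b, -0.19 for Tet2 and -0.28 for Tet3, with -0.30 for Dnmt3b at the low dose, and all of these values over cohorts kept their call.

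The composition of the libraries moved with dose. The 10 most abundant genes took a median of 24.2% of the counts in vehicle livers, 22.6% at the low dose and 19.1% at the high dose, and the TMM factors ran from 0.718 to 0.913, from 0.837 to 1.14 and from 0.947 to 2.03. On library totals the high dose moved the median of all genes up by 0.62, against -0.0014 under TMM, and the share of higher genes among those that passed was 88.4% against 51.3%. DESeq2 size factors and transcript-length offsets gave the same signs as TMM for all 4 genes at the high dose. Relative to the typical gene, all 4 were lower, and 35.8% of all genes tested were lower at the high dose by an adjusted p of 0.1 (73.6% passed in either direction). The fall of over 1 on the log2 scale, which Dnmt3b alone reached, was shared by 7.97% of genes, and for the low dose 10.7% of all genes were lower by the adjusted p (28.5% in either direction), Dnmt3b among them.

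**Figure D2:**
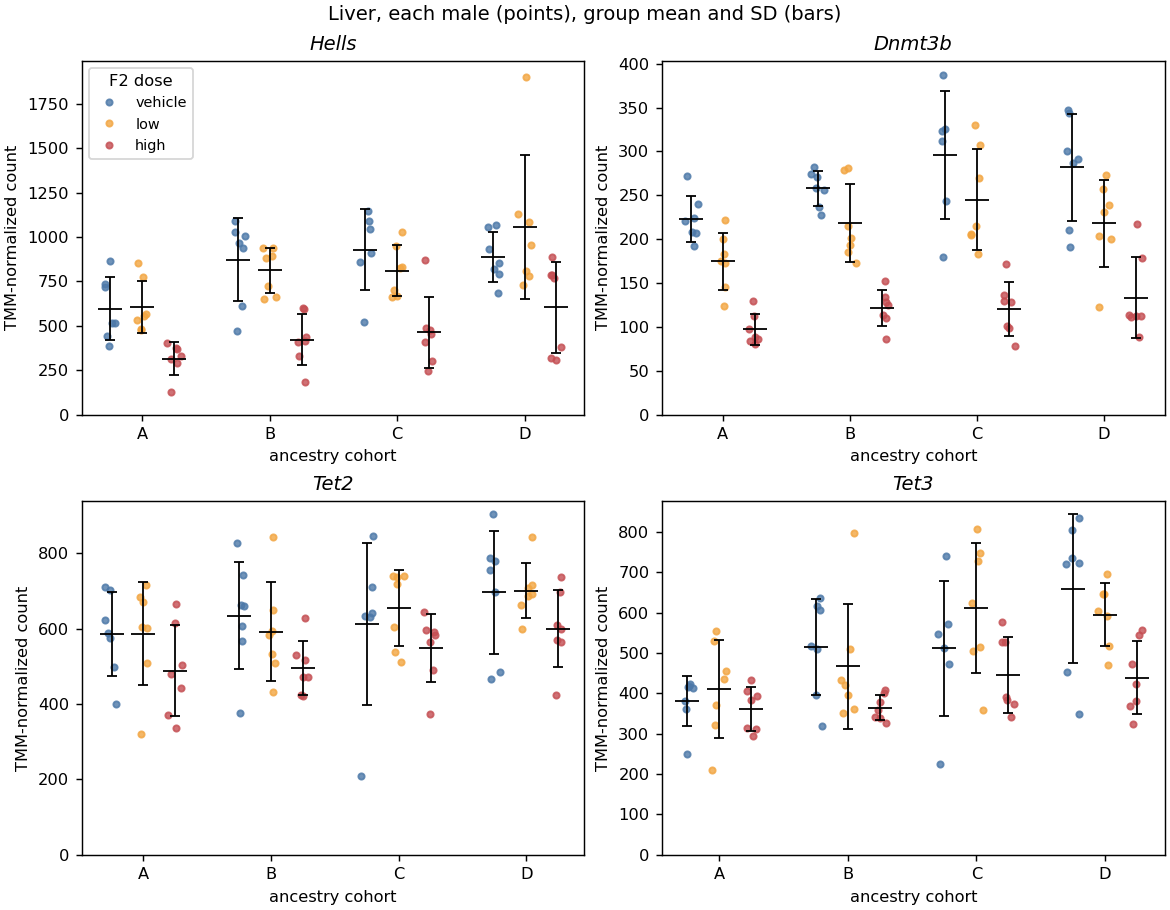
TMM-normalized counts (linear axes from 0) of the 4 genes in the 83 livers by ancestry cohort and F2 dose, with a point for each male and bars for the group mean and SD. High-dose Dnmt3b, at 78.3 to 217, sits below most vehicle males in every cohort, and the Tet2 and Tet3 groups overlap (on library totals alone the high-dose sign of both Tet genes turns).

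**Figure D3:**
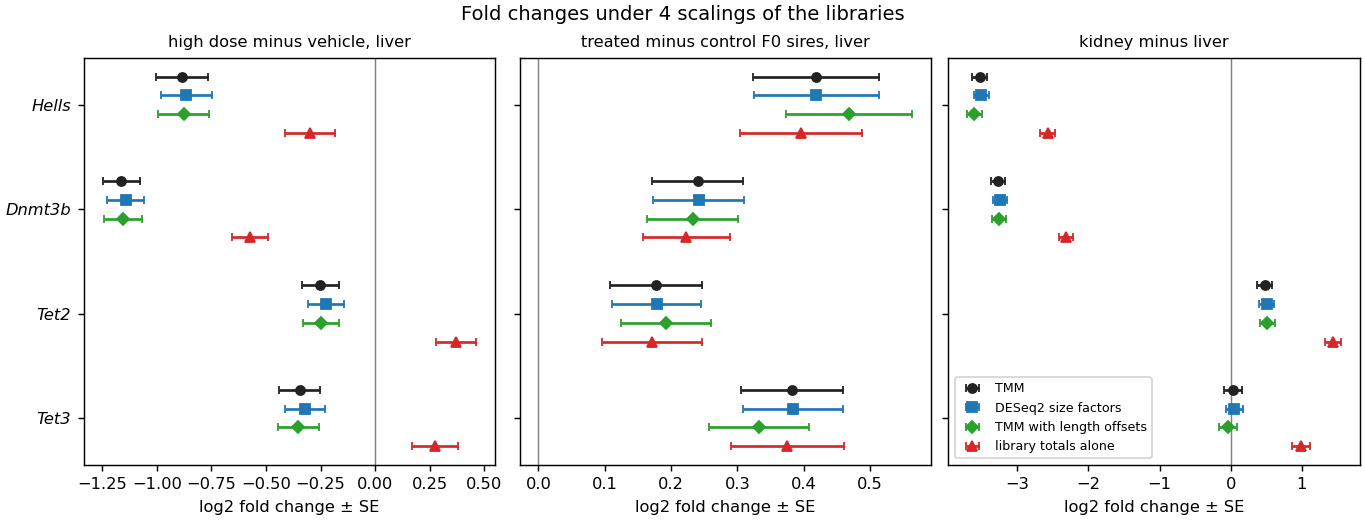
Log2 fold change with SE of each gene under TMM, DESeq2 size factors, TMM with length offsets and library totals alone, for the high dose against vehicle, treated against control F0 sires, and kidney against liver. The F0 values hardly move with the scaling, while on library totals the high-dose values of Tet2 and Tet3 turn to 0.37 and 0.27 and Tet3 in kidney to 0.98.

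Some markers of other cells moved with the dose as well, in a comparison that 73.6% of all genes passed. Most of their identifiers are known only because the authors listed the genes for F0 ancestry. Of the macrophage list 2 of 6 had an identifier: Adgre1, which encodes F4/80, rose at the high dose by 0.38 ± 0.104 (log2 fold change ± SE, edgeR adjusted p = 0.000809) from 2.67 to 15.3 TPM in vehicle livers to 6.31 to 40.4 TPM, and Cd163, a scavenger receptor, gave 0.0038 ± 0.101 (on library totals alone 0.98 for Adgre1 and 0.60 for Cd163, both passing). Of the endothelial list 1 of 5 had one: Kdr, the main VEGF receptor, fell by 1.06 (edgeR adjusted p = 4.72e-15), and on library totals alone gave -0.48 and passed. The stellate cell, lymphocyte and cholangiocyte lists had none. Their part in the changes of the 4 genes was not tested.

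Ancestry was examined in liver in 1 additive model that held the treatment of the F0 and F1 sires beside the dose of the F2 males. With a treated F0 grandsire, Tet3, Hells and Dnmt3b were higher and Tet2, also positive, did not pass. The calls of Dnmt3b and Tet2 lay near the threshold: that of Dnmt3b was lost with males of 1 grandsire treated as correlated and without necropsy date 4, and Tet2 passed in several alternatives.

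For Tet3, the lowest, median and highest normalized counts in vehicle males were 249, 417 and 637 with control grandsires (n = 14) and 226, 572 and 836 with treated ones (n = 13). At the low dose they were 210, 427 and 798.8 against 359, 614 and 809, and at the high dose 294, 368 and 434 against 324, 408 and 577 (n = 14 each). The treated median was the higher one at each dose, with overlapping ranges. The F0 term was 0.38 ± 0.0765 (log2 fold change ± SE, edgeR adjusted p = 0.00058).

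For Hells, medians with control and treated grandsires were 727 and 912 in vehicle males, 692.6 and 827 in low-dose males, and 370 and 466.1 in high-dose males, again with overlapping ranges. The F0 term was 0.42 ± 0.095 (log2 fold change ± SE, edgeR adjusted p = 0.0029). For Dnmt3b the medians were 238 and 301, 189 and 223, and 112 and 113, so that the high-dose medians were alike, and the F0 term was 0.24 ± 0.0688 (edgeR adjusted p = 0.0227). For Tet2 the medians were 616 and 698, 598 and 700, and 476 and 588.1, and the F0 term was 0.18 ± 0.0687 (edgeR adjusted p = 0.117). Of all genes tested, 5.14% were higher by this criterion (8.93% in either direction), so 3 of these 4 stand among a set of 977 genes. As the authors had named these genes from the same comparison, this share is not an independent yardstick for them.

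The 3 libraries that stood apart did not carry these values. Without them the F0 terms were 0.42 for Hells, 0.23 for Dnmt3b, 0.17 for Tet2 and 0.37 for Tet3, with the same calls. Another library mattered for Tet2: without C vehicle replicate 4, whose Tet2 (209) and Tet3 (226) counts were the lowest of the vehicle livers, the Tet2 term was 0.20 and passed (edgeR adjusted p = 0.0241). The Tet2 term also passed with DESeq2 (0.18, adjusted p = 0.0804), with a filter on a mean count over 10 (0.18, edgeR adjusted p = 0.0779) and without necropsy date 2 (0.17, edgeR adjusted p = 0.082). The Dnmt3b term lost its call without necropsy date 4 (0.23, edgeR adjusted p = 0.169) and, at 0.20, with males of 1 grandsire treated as correlated in limma-voom (adjusted p = 0.1002).

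Within each of the 4 necropsy dates the F0 difference was positive for all 4 genes. It ran from 0.14 to 0.54 for Hells, from 0.10 to 0.36 for Dnmt3b, from 0.06 to 0.27 for Tet2 and from 0.28 to 0.45 for Tet3 (log2 CPM differences adjusted for F1 and dose, 12 to 24 males per date). In vehicle males alone the F0 value was 0.33 for Hells, 0.27 for Dnmt3b and 0.40 for Tet3, and none passed (edgeR adjusted p = 0.33, 0.233 and 0.193). No F0 effect passed within a single dose in the model of group means, where the lowest edgeR adjusted p of the 4 genes was 0.129, for Tet3 in vehicle males, and where 3.07%, 0.363% and 0.121% of all genes passed at vehicle, low and high dose.

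Because the F0 sires were the treated units, log2 CPM was averaged per grandsire after subtraction of the F1 and dose terms, and the 9 treated were compared with the 8 control sires by an exact permutation test over 24310 splits, two-sided, for each of the 4 genes without adjustment. For Tet3 the sire means ran from 3.20 to 3.52 (control) and from 3.51 to 3.85 (treated), a difference of 0.37 (exact p = 0.000123). For Dnmt3b they ran from 2.37 to 2.57 and from 2.51 to 2.92, a difference of 0.23 (exact p = 0.000535). The Hells means ran from 3.74 to 4.10 and from 3.84 to 4.78, a difference of 0.33 (exact p = 0.00901), and the Tet2 means from 3.53 to 4.06 and from 3.67 to 4.07, a difference of 0.17 (exact p = 0.032). All 9 treated sires exceeded the control median for Tet3, and 8 of 9 did for each of the other genes. Without C vehicle replicate 2 the 4 differences were 0.33 for Hells, 0.22 for Dnmt3b, 0.17 for Tet2 and 0.37 for Tet3.

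**Figure D4:**
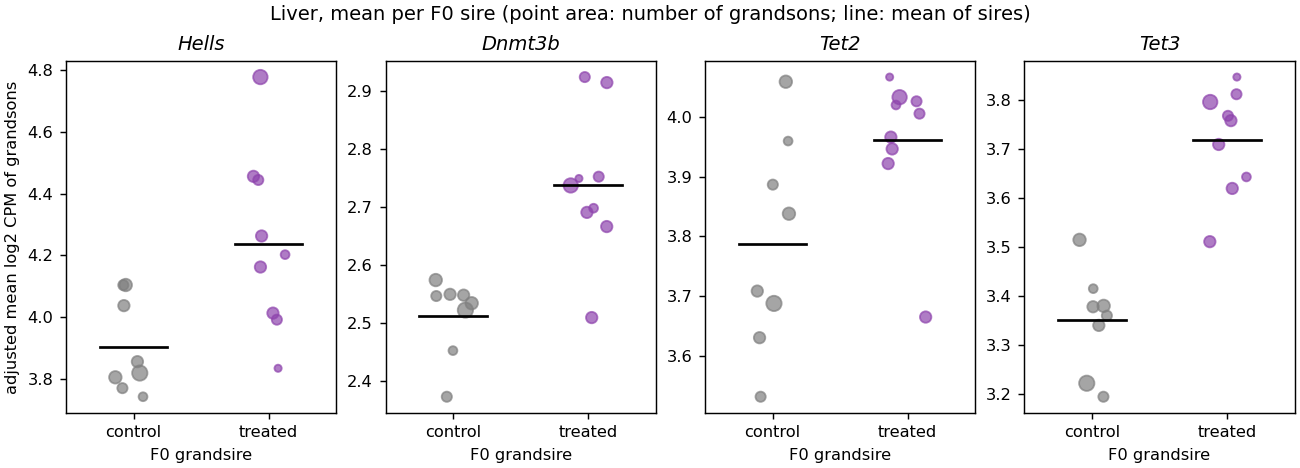
Mean log2 CPM of the grandsons of each F0 sire, adjusted for F1 treatment and dose, for 8 control and 9 treated sires, with point area proportional to the number of grandsons and a line at the mean of the sires (axes do not start at 0). For Tet3 the treated sires (3.51 to 3.85) and control sires (3.20 to 3.52) barely overlap, while for Tet2 both kinds span much of the same range.

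Markers of macrophages moved with F0 ancestry in these livers: Adgre1 and Cd163 were both lower by 0.30 on the log2 scale (log2 fold change -0.30 ± 0.0847 and -0.30 ± 0.0826, edgeR adjusted p = 0.0212 and 0.0147), and Kdr gave 0.21 ± 0.0849 and did not pass (edgeR adjusted p = 0.145). Both kidney epithelium markers, low in liver, were higher, Lrp2 by 0.27 ± 0.0971 and Nphs1 by 0.32 ± 0.0893 (log2 fold change ± SE, edgeR adjusted p = 0.0793 and 0.0209), of which Lrp2 lost its call on library totals (0.25, edgeR adjusted p = 0.14). Most of these identifiers are known only because the authors listed the genes for F0 ancestry. Their part in the F0 differences of the 4 genes was not tested.

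A treated F1 sire gave positive differences that did not pass, at 0.36 ± 0.095 for Hells (log2 fold change ± SE, edgeR adjusted p = 0.116), 0.15 ± 0.0767 for Tet3 (0.483), 0.13 ± 0.0688 for Dnmt3b (0.506) and 0.09 ± 0.0687 for Tet2 (0.633). Only 0.2% of genes passed for F1 in either direction. The Tet3 value was not even over the doses, at 0.40 ± 0.135 in vehicle, 0.07 ± 0.131 in low-dose and -0.0066 ± 0.131 in high-dose males (log2 fold change ± SE in the model of group means), and none of these passed (lowest edgeR adjusted p 0.183). The Hells value crossed the threshold in several alternatives, with the necropsy date as a replicate block among them (0.37, edgeR adjusted p = 0.0622).

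Among vehicle males, cohort D exceeded cohort A for Tet3, with 349 to 836 counts against 249 to 424 and a log2 fold change of 0.79 ± 0.188 (edgeR adjusted p = 0.00971, a test passed by 5.53% of genes). In 6 of 7 cohort D males Tet3 lay above every cohort A male, and the share of all genes with such a separation was not computed. Without the 3 libraries that stood apart, 2 of them cohort D males, the Tet3 value was 0.70 and passed (edgeR adjusted p = 0.0404). Hells was lowest in cohort A, with a mean of 597 ± 176.4 (SD, n = 7) against 873 ± 235 in B (n = 7), 928 ± 227 in C (n = 6) and 886 ± 140 in D (n = 7). The 3 differences of Hells from cohort A were 0.55 ± 0.235, 0.64 ± 0.243 and 0.57 ± 0.235 (log2 fold change ± SE) and none passed (lowest edgeR adjusted p 0.181), and no other member passed in B or C, where 0.0105% and 0.274% of genes did. Hells in D against A did pass on library totals (0.66, edgeR adjusted p = 0.0989), with length offsets (0.75, edgeR adjusted p = 0.076) and when vehicle males were fitted alone (0.60, edgeR adjusted p = 0.0789). When all 12 liver groups were ordered by their mean, each group overlapped its neighbour in that order for all 4 genes.

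Whether ancestry altered the response to CCl4 was tested by interaction terms. None of 44 interaction terms of the 4 genes, the organ by F0 terms included, passed by edgeR, in contrasts that 0.716% (F0 by low dose) or 0% of all genes passed. Tet3 had the only unadjusted p under 0.05, its high-dose response being lower by 0.41 on the log2 scale with a treated sire in F1 (log2 fold change -0.41 ± 0.188, edgeR adjusted p = 0.433).

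The Tet genes of vehicle livers were lowest on necropsy date 2, a difference between dates that was not tested. On date 2 the 7 vehicle males had Tet2 counts from 209 to 576 (median 466.4), below most of the other vehicle males, which ran from 624.6 to 904 on date 1, from 589 to 788 on date 3 and from 498 to 847 on date 4. For Tet3 the date 2 vehicle males had 226 to 453 counts (median 349), against 416 to 804.5 (median 589) on date 1, 380.8 to 723 (491) on date 3 and 362.5 to 836 (567) on date 4, so that the ranges overlapped. The medians of the low-dose males of date 2 were higher, at 699.8 for Tet2 and 624.5 for Tet3, but their ranges of 321.5 to 844 and 210.4 to 809 took in much of the vehicle ranges of that date.

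By date, the dose differences of the Tet genes did not all have the same sign. Within date 2 the Tet2 differences from vehicle were 0.62 (low dose) and 0.39 ± 0.208 SE (high dose), and those of Tet3 were 0.68 and 0.22 ± 0.232. Within dates 1, 3 and 4 the high-dose differences were -0.48 ± 0.113, -0.26 ± 0.150 and -0.47 ± 0.105 for Tet2. For Tet3 they were -0.55 ± 0.134, -0.22 ± 0.146 and -0.58 ± 0.152. On dates 2 and 3 the high-dose values lay within 2 SE of 0. Without date 2 Tet2 and Tet3 passed at the low dose too, at -0.18 and -0.21 (edgeR adjusted p = 0.0759 and 0.0648). Hells and Dnmt3b were lower at the high dose on all 4 dates, by -1.15 to -0.75 and by -1.31 to -0.87. An interaction of date with dose was not tested.

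**Figure D5:**
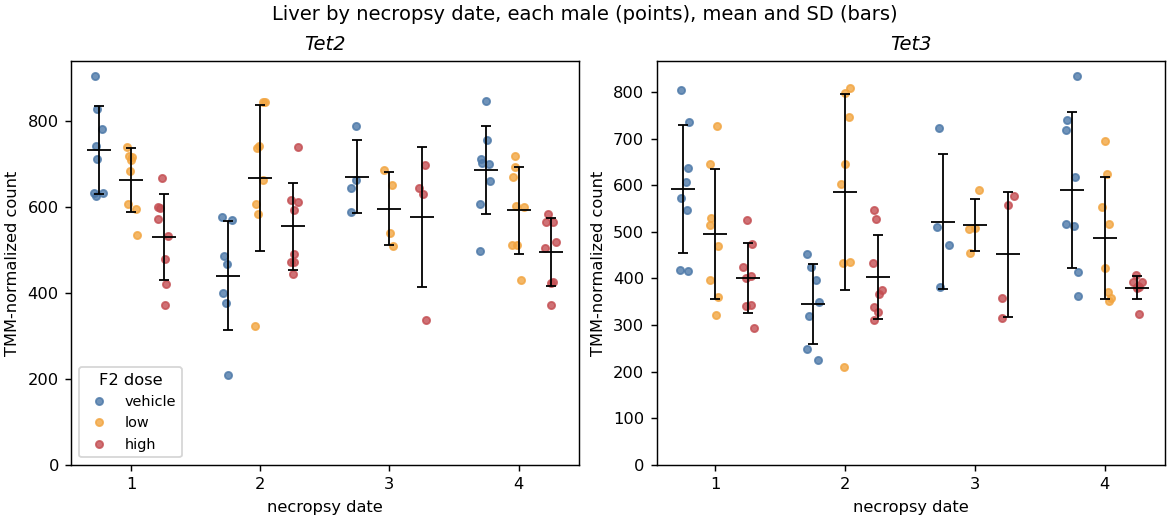
TMM-normalized counts (linear axes from 0) of Tet2 and Tet3 in liver by necropsy date and F2 dose, with a point for each male and bars for the mean and SD. Vehicle males of date 2, at 209 to 576 for Tet2 and 226 to 453 for Tet3, sit low, and the high-dose mean is above the vehicle mean on that date and below it on the others (under TMM).

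Relations between the genes were computed on log2 CPM within each dose, as deviations from cohort means, with 100000 permutations within cohorts and adjustment over 22 relations. Tet2 and Tet3 varied together in vehicle males (Pearson r = 0.884, Spearman rho = 0.736, n = 27, permutation p = 2e-05 and 7e-05, adjusted 0.00044 and 0.00154), at the low dose (r = 0.77, rho = 0.646, n = 28, permutation p = 0.00011 and 0.0009, adjusted 0.00121 and 0.0066) and at the high dose (r = 0.637, rho = 0.681, n = 28, permutation p = 0.00056 and 0.00021, adjusted 0.00411 and 0.00231). After removal of the 2 males farthest from the median of Tet2 these became 0.858, 0.596 and 0.58. With 4 to 8 males of a dose per necropsy date, spread over 4 cohorts, no values were computed within single dates, but date was removed together with cohort, a choice made after seeing the data. Tet2 and Tet3 then gave r = 0.687 and rho = 0.613 in vehicle males (permutation p = 0.00441 and 0.0036, adjusted 0.0323 and 0.0264), and after removal of the 2 farthest males r was 0.428. At the low dose the values were r = 0.804 and rho = 0.772 (adjusted permutation p = 0.00638 and 0.00264) and at the high dose r = 0.626 and rho = 0.672 (adjusted permutation p = 0.0276 and 0.0117). Pairs of genes outside these 4 were not computed, so how common such relations are is not known.

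Dnmt3b was related to Tet2 and Tet3 in vehicle males by Pearson's r alone (0.668 and 0.605, permutation p = 0.00363 and 0.00891, adjusted 0.02 and 0.0392), with rho of 0.433 and 0.445 (permutation p = 0.034 and 0.0333, adjusted 0.125 for both). These relations fell to 0.396 and 0.355 without 2 males, so they rest in part on those samples. With date removed as well they were 0.482 and 0.382 and did not pass (adjusted permutation p = 0.167 and 0.262). Hells was not related to any of the other 3 at any dose by the adjusted values (r from -0.42 to 0.411, lowest adjusted permutation p = 0.141). Liver and kidney levels in the same male gave r from -0.32 to -0.0943 (permutation p from 0.158 to 0.721), with none passing. For Tet2 the rho was -0.441 (permutation p = 0.0284, adjusted 0.125).

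Across the 12 liver group means, the genes whose pattern was most like each member were named by Pearson's r of mean log2 CPM, among 1478 genes with a symbol and a mean normalized count over 50. For Dnmt3b they were Abtb2 (0.99), Lzts1 (0.99), Top3a (0.99), Usf1 (0.99) and Suds3 (0.99), and for Hells Stard13 (0.97), Adamts7 (0.97), Sox5 (0.97), Nedd1 (0.96) and Hdhd3 (0.96). For Tet3 they were Pnisr (0.99), Vamp1 (0.98), Thumpd2 (0.98), Rreb1 (0.98) and Hexd (0.97), and for Tet2 Cdan1 (0.95), Baz2b (0.95), Lhx2 (0.94), Prdm15 (0.94) and Kif13b (0.93). Such values were common, as 207 of the candidates exceeded 0.9 with Dnmt3b, 133 with Hells, 87 with Tet3 and 25 with Tet2. The candidates were nearly all listed by the authors for F0 ancestry, and the groups share the high-dose shift, so these values describe likeness over 12 points. Among the members themselves r was 0.91 for Hells and Dnmt3b, 0.89 for Tet2 and Tet3 and 0.68 for Dnmt3b and Tet3.

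The deposited average transcript length can change with the estimated mixture of transcripts of a gene and with properties of a library. In vehicle livers it differed between cohort A and the other cohorts for some members. For Hells the mean was 2799 bases in cohort A vehicle livers against 2473, 2403 and 2527 in cohorts B, C and D, and for Tet3 it was 5163 against 5773, 5817 and 5850. Single males overlapped for both genes (Tet3 from 4410 to 5783 in cohort A and from 4960 to 6348 in cohort B). Lengths of Dnmt3b (2420 to 2502) and Tet2 (7582 to 7702) stayed close across the 4 cohorts, with cohort A again at one end of the range for each. A shift of cohort A vehicle livers was thus not particular to Hells and Tet3. At the high dose the cohorts were closer, with Hells means of 2575 in A against 2511, 2483 and 2609 and Tet3 means of 5504 in A against 5799, 5798 and 5579. A difference of over 0.1 on the log2 scale between cohort A and the others was present in 13.6% of all genes in vehicle livers, 6.33% at the low dose and 2.18% at the high dose, and the same measure for each of the other cohorts against the rest lay between 1.33% and 5.5%. With lengths as offsets the F0 terms were 0.47 for Hells, 0.23 for Dnmt3b, 0.19 for Tet2 and 0.33 for Tet3, and Tet2 then passed (edgeR adjusted p = 0.0779). No test was made of the lengths.

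In kidney, ancestry was compared in vehicle males only. Hells had 49.4, 71.2 and 114 normalized counts (lowest, median and highest) with control grandsires (n = 14) and 53.9, 87.9 and 116 with treated ones (n = 13). Dnmt3b had medians of 30.9 and 29.9, Tet2 of 1132 and 936, and Tet3 of 517 and 516. The ranges overlapped for every gene. The F0 terms were 0.17 ± 0.124 for Hells, -0.04 ± 0.154 for Dnmt3b, -0.25 ± 0.141 for Tet2 and 0.10 ± 0.190 for Tet3 (log2 fold change ± SE), and none passed by edgeR (adjusted p from 0.617 to 0.954), nor at an unadjusted p of 0.05 or by DESeq2. Only 0.0109% of genes passed for F0 in kidney. The F1 terms lay between -0.11 and 0.19 and none passed either, as for 0% of all genes.

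The difference between the organs in the F0 effect was tested itself. It was -0.16 ± 0.193 for Hells, -0.29 ± 0.180 for Dnmt3b, -0.35 ± 0.213 for Tet2 and -0.29 ± 0.251 for Tet3 (kidney minus liver, log2 fold change ± SE), and none passed (lowest edgeR adjusted p 0.76, with 0% of all genes passing). Raw kidney counts of Dnmt3b were 11 to 46.

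Of the genes listed for the pathway, 2 of 11 methylation writers and recruiters, 4 of 12 demethylation genes, 2 of 9 methyl-CpG readers and 2 of 14 SNF2 remodelers had an identifier, the members included, which leaves 6 other genes. With F0 ancestry 4 were higher, 1 was lower and 1 did not pass, where 5.14% of all genes were higher and 3.79% lower. Mbd6 rose by 0.31 ± 0.0728, Cxxc5, which binds unmethylated CpGs, by 0.25 ± 0.0672, Chd3, an ATPase of the NuRD complex, by 0.19 ± 0.0634 and Ogt, a glycosyltransferase that binds TET proteins, by 0.15 ± 0.053 (log2 fold change ± SE, edgeR adjusted p from 0.00357 to 0.0732). Mbd1, a methyl-CpG reader, fell (-0.17 ± 0.0531, edgeR adjusted p = 0.0345). Smarca2, an ATPase of the SWI/SNF complex, gave 0.21 ± 0.0787 (edgeR adjusted p = 0.107). They were mostly listed by the authors for this comparison, so the counts are not independent evidence. On library totals Ogt, Mbd1 and Chd3 lost their call (edgeR adjusted p = 0.254, 0.155 and 0.12). The lists of methyl donor metabolism and of DNA replication and cell division had no identifier.

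At the high dose 5 of these 6 were lower under TMM, namely Chd3 (-0.83 ± 0.0783), Cxxc5 (-0.55 ± 0.0827), Smarca2 (-0.51 ± 0.0969), Mbd6 (-0.27 ± 0.0897) and Ogt (-0.20 ± 0.0653), and Mbd1 was higher (0.20 ± 0.0652), all with edgeR adjusted p at or under 0.00583, in a comparison that 73.6% of all genes passed and 35.8% passed as lower. On library totals alone 4 of these signs turned, Ogt (0.43) and Mbd6 (0.32) then being higher and Cxxc5 (0.02) and Smarca2 (0.07) not passing, while Chd3 stayed lower (-0.21) and Mbd1 higher (0.83). In kidney against liver all 6 were higher, by 0.22 to 0.82 on the log2 scale, in a comparison that 44.7% of genes passed in that direction. None passed for F0 in kidney (edgeR adjusted p from 0.583 to 0.953).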

How the data were processed

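Polyadenylated RNA of F2 liver and kidney was sequenced with a stranded kit. The authors quantified reads with Salmon 0.14.0 against Ensembl transcripts and summed them per gene with tximport in R 3.5.0. They deposited estimated counts, rounded to whole numbers, and average transcript lengths in bases per gene and sample. Fold-change columns were not used. Genes with a count over 10 summed over any group were tested with edgeR 4.0.16 (quasi-likelihood, TMM, Benjamini-Hochberg adjusted p under 0.1) in R 4.3.3, with models of group means or of F0, F1 and dose terms. The SE is the absolute log2 fold change over the root of F. Log2 CPM used a prior count of 2, and normalized counts are TMM-scaled. TPM was computed from counts and lengths. Alternatives used DESeq2 1.42.0, limma 3.58.1, length offsets, other filters, blocks and samples. Library totals alone and the single libraries left out were chosen after seeing the data. The statistics were tested on simulated data. Members and lists were chosen with earlier results of these data known. Symbols of listed genes came from the study's supplement, and the genes named were all listed genes with an identifier and, per member, the 5 most alike in pattern. Same-litter males of other doses had a mean residual correlation of 0.111 (68 pairs), and same-date males of other cohorts 0.0112 (684 pairs). Males are separate animals, and no libraries held identical values. Totals set counting precision.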

Additional observations from a re-analysis of the deposited data

Results flagged for a closer look

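Gaps within a group were examined for each gene in 64 tests of group and gene, of which chance flags about 1 in 20, and 8 samples stood apart from their group in normalized counts. For Hells in liver these were A high replicate 4 (129.1, the nearest male at 290.6), C high replicate 7 (868.1, nearest 487.9) and D low replicate 1 (1902, nearest 1131). For Tet2 they were C vehicle replicate 4 in liver (208.9, nearest 632.5), and C vehicle replicate 1 (392.6, nearest 909.4) and D vehicle replicate 10 (477.6, nearest 847.5) in kidney. For Tet3 in liver they were A vehicle replicate 5 (249, nearest 362.5) and B low replicate 4 (798.8, nearest 509.4). Of 44 interaction tests by edgeR none passed, and 1 had an unadjusted p under 0.05.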

How the results depend on the processing

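The Hells and Dnmt3b decreases at the high dose over cohorts, and the Hells and Tet3 increases with a treated F0 grandsire in all livers, kept their direction and call in each alternative run, apart from F0 in vehicle males alone. For comparisons between groups, 620 of the values under an alternative kept direction and call, 46 changed sign, 19 gained a call and 15 lost one. The sign changes were in effects that had not passed or came with library totals. Values are log2 fold changes by edgeR unless another tool is named, and the cause of each change was not tested.

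On library totals alone, chosen after seeing the data, calls of F0 went from 1697 to 1062 genes, and the share of higher genes among those called from 62.3% to 94.7% at the low dose, from 51.3% to 88.4% at the high dose, from 51.9% to 87.8% between doses, from 63.2% to 77.3% for F1 and from 52.4% to 82.2% between organs. Values there were 0.40 for Hells with F1, 0.16, -0.14 and 0.17 for Hells, Dnmt3b and Tet2 at the low dose, 0.37 and 0.27 for Tet2 and Tet3 at the high dose, and 0.20 and 0.085 for them between doses. At the high dose by cohort they were -0.23, 0.44 and 0.62 for Hells, Tet2 and Tet3 in A, -0.41, 0.28 and 0.13 in B, 0.36 and 0.32 for Tet2 and Tet3 in C, and -0.037, 0.41 and 0.049 for all 3 in D. At the low dose they were 0.014 for Tet2 in B and 0.031 for Tet3 in D. Hells in cohort D against A was 0.66 and gained a call, and Tet3 in kidney 0.98.

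With a replicate block of necropsy date, Hells with F1 was 0.37 and Tet2 at the low dose 0.013. With a litter block, low-dose values were 0.022, 0.061 and -0.0094 for Hells, Tet2 and Tet3, -0.098 and 0.12 for Hells in A and C, and high-dose Tet2 in B was -0.35 and lost its call. With an animal block Tet3 in kidney was -0.011, and Dnmt3b for F0 was 0.20 with the grandsire as a correlated block. The blocks changed no other call or sign.

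Without the first date Tet2 was 0.046 at the low dose, and -0.13 at the high dose and -0.17 between doses, both calls being lost. Without the second date it was 0.17 for F0 (call gained) and -0.18 at the low dose, with Hells at 0.021 and Tet3 at -0.21. Without the third date Hells with F1 was 0.46 and low-dose Tet2 0.014. Without the fourth date Dnmt3b for F0 was 0.23, and Tet2 was 0.089 at the low and -0.16 at the high dose, where Dnmt3b for F0 and high-dose Tet2 lost their calls. Without C vehicle replicate 2 Hells was 0.37 for F1 and 0.0049 at the low dose, and without D vehicle replicates 1 and 2 as well it was 0.38 for F1, with low-dose Tet2 at 0.0095 and high-dose Hells in D at -0.49, its call lost. Without C vehicle replicate 4 Tet2 was 0.20 for F0 (call gained), and in C -0.080 at the low dose and -0.34 at the high dose (call gained), with low-dose Tet3 at -0.022. Over the single libraries left out, Hells ran from 0.34 to 0.37 for F1 and from -0.032 to 0.0049 at the low dose, and low-dose Tet3 from -0.022 to 0.012.

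Length offsets gave 0.19 for Tet2 with F0 (call gained), 0.38 for Hells with F1, 0.00075 for low-dose Tet2, -0.0060 for it in D, 0.75 for Hells in D against A (call gained), and -0.021 and -0.038 for Tet3 with F1 in kidney and between organs. The filter on a mean count over 10 gave 0.18 for Tet2 with F0 (call gained) and -0.0019 for low-dose Tet3, which was -0.0025 with no filter and -0.0060 with DESeq2 size factors. DESeq2 itself gave 0.18 for Tet2 with F0 (call gained), 0.36 for Hells with F1 and -0.0061 for low-dose Tet3. Its Tet2 values were -0.010 and -0.018 at the low dose in A and D, -0.32 at the high dose in B (call lost), and -0.0079 for the low-dose interaction of D. Vehicle males alone gave F0 values of 0.33, 0.27 and 0.40 for Hells, Dnmt3b and Tet3, and 0.60 for Hells in D against A (call gained). Only the 2 groups compared gave -0.0032 and -0.019 for Hells and Tet2 at the low dose in A and -0.013 for Tet2 in D. Grandsire means gave 0.17 for Tet2. With date removed beside cohort, r was 0.482 and 0.382 for Dnmt3b with Tet2 and Tet3 in vehicle males, both calls being lost, and -0.0824 for Hells with Tet2 at the low dose.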
